A study of Mus musculus with 6 samples.

Results

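Thyroid hormone handling in the mouse optic nerve was described through 9 genes, Ttr, Slco1c1, Crym, Dio2, Dio3, Thra, Thrb, Klf9 and Hr, out of 35850 genes with deposited values. They were chosen by gene symbol for their known roles, and each gene's value is the sum over its listed transcripts. Poly(A) RNA from optic nerve was sequenced in 6 libraries, 3 per diet, to ask how an obesogenic diet changes gene expression in nerves of mice that form optic glioma. The obesogenic group was exposed to AIN-76A chow that supplied 58% of energy as fat and contained sucrose. The control group had PicoLab 5053. Mice of both groups were 6 weeks old and had the genotype GFAP-Cre; Nf1-Flox/R681X, and the series title calls the diet exposure maternal. Cre recombinase was driven by the GFAP promoter, so the floxed Nf1 allele is lost only where that promoter is or was active, and no group without these alleles was analysed here. The labels do not say whether libraries came from separate animals or litters, so the p-values describe only how these samples scatter, and that scatter may be technical.

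Thyroid hormone circulates mostly as the prohormone thyroxine (T4), bound to carrier proteins, and crosses into the brain through membrane transporters. Astrocytes and tanycytes convert T4 to the active hormone T3 with the deiodinase DIO2, whereas DIO3, found mainly in neurons, inactivates both hormones. T3 then binds the nuclear receptors encoded by Thra and Thrb, which act as partners of retinoid X receptors on target genes such as Klf9 and Hr, and oligodendrocyte maturation and myelination depend on this signal.

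No difference between diets in these genes passed the test. Values are in TPM, a unit of transcript abundance that adjusts for length and scales each library to a common total, and the test was limma on log2(TPM + 1), with p-values adjusted over all 14364 genes that had at least 1 TPM in at least 3 libraries. Of the 9 genes, 8 passed that filter and 0 were called at an adjusted p under 0.05, where 0.00696% of all tested genes were called. Unadjusted, 1 of the 8 had a p under 0.05, against 11% of all tested genes. The log2 difference, obesogenic minus control, was positive for 4 and negative for 4, with a median of 0.06 beside 0.08 over all genes tested. Klf9 was the most abundant of the 9 genes in every library, and Thra was second in every library. Below them, Thrb was above Ttr, Dio3 and Hr in every library, while the places of Dio2, Slco1c1, Crym, Ttr and Dio3 changed between libraries.

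**Figure D1:**
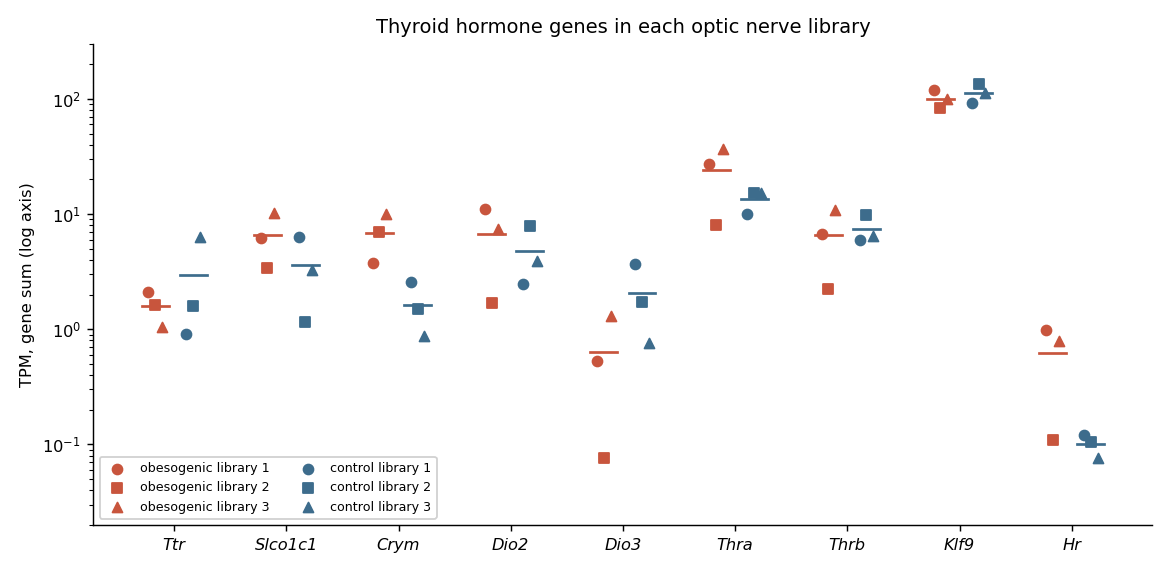
Levels of the 9 thyroid hormone genes, with TPM on a log vertical axis, obesogenic libraries left of control libraries, a point per library and a line for each group mean (n = 3 each). The diets overlap for every gene except Crym, where the lowest obesogenic library is at 3.74 TPM and the highest control library at 2.55 TPM.

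The libraries differed in make-up. Immunoglobulin genes made up 20.6% of listed TPM in obesogenic library 2 and at most 0.0439% in each of the other 5 libraries. Neuronal markers summed to between 213 and 1920 TPM in obesogenic libraries, against 60.6 to 81.8 TPM in control libraries. On average 13 of 13 tested markers were higher, and 8 of them were so without overlap, as were 8.88% of all tested genes. Much of the obesogenic sums came from the neuropeptide genes Npy and Pomc. Npy had 312, 83.1 and 430 TPM in obesogenic libraries 1, 2 and 3, and Pomc had 332, 35.9 and 547 TPM. In control libraries Npy did not exceed 9.97 TPM and Pomc 6.63 TPM. Meningeal markers summed to between 12582 and 17483 TPM in obesogenic libraries, against 44396 to 54587 TPM in control libraries, and oligodendrocyte markers to between 27187 and 55522 TPM, against 62185 to 70217 TPM. Endothelial markers summed to between 1165 and 1680 TPM in obesogenic libraries, against 1838 to 2508 TPM in control libraries, and astrocyte markers to between 3281 and 8592 TPM, against 7158 to 8725 TPM. Their part in the values of single genes was not tested. In bulk samples, fewer cells of a type and less RNA per cell cannot be told apart. Nf1, the gene altered in both groups, had 2.71, 1.55 and 2.92 TPM in obesogenic libraries 1, 2 and 3, against 3.67, 3.09 and 4.28 TPM in control libraries, with a log2 difference of -0.48 and an adjusted p of 0.647. A sum over the gene does not report on the recombined exons.

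Sequences ahead of an annotated transcription start are shown for 3 of the genes. They are Dio2 as the activating enzyme, Thrb at the start site of its most abundant listed transcript, and Klf9 as the most abundant target. They were taken from RefSeq promoters of build GRCm38.p6. They were searched on both strands for TGACGTCA, the cyclic AMP response element through which Dio2 is known to be induced in human and rat, and for AGGTCA, the core recognised by thyroid hormone receptors and many other nuclear receptors. Capitals mark the only match. The Dio2 window is chr12:90739039-90739288 on the minus strand, the Klf9 window chr19:23140976-23141225 on the plus strand and the Thrb window chr14:17981394-17981528 on the plus strand.
Dio2: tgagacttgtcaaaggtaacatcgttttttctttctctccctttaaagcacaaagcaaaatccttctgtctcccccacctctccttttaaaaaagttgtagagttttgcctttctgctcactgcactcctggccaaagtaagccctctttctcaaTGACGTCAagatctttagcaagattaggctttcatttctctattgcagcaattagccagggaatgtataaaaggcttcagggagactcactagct
Klf9: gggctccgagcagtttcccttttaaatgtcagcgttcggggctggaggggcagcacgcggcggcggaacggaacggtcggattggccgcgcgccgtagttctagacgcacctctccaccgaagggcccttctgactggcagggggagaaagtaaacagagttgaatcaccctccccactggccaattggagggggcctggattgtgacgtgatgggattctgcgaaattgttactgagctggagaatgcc
Thrb: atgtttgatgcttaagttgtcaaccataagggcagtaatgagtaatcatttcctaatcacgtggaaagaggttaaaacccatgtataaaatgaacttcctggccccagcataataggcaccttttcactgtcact
The match in Dio2 begins 95 bases before the RefSeq start at base 90739038. That start lies upstream of base 90738438, where the listed transcript Dio2-201 begins. TGACGTCA was present in 1.55% of 32851 windows of 250 bases ahead of RefSeq starts. AGGTCA was present in 14.0% of those windows and in 7.77% of their first 135 bases. That part, the farthest from the RefSeq start, is the one shown for Thrb. TGACGTCA was present in 0.289% of these shorter parts. A match describes the letters and does not show binding.

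The carrier and the transporter came first in the route of the hormone. Ttr encodes transthyretin, which carries thyroxine in blood and cerebrospinal fluid and is made in the brain mainly by choroid plexus. It had 2.10, 1.63 and 1.05 TPM in obesogenic libraries 1, 2 and 3, against 0.913, 1.58 and 6.31 TPM in control libraries. Control library 3 alone was high, and the other 5 libraries lay close together. Means were 1.59 ± 0.528 TPM in obesogenic and 2.93 ± 2.94 TPM in control libraries (SD, n = 3 each), and the log2 difference of -0.37 (95% interval -1.63 to 0.89) had a limma adjusted p of 0.851. Without control library 3 the log2 difference was 0.20. Choroid plexus markers summed to between 227 and 424 TPM in obesogenic libraries, against 337 to 480 TPM in control libraries, with 9 of 18 tested and 1, Tmem72, listed at 0 in all 6 libraries. Enpp2, which other cells also express, made up most of that sum, and without it the sums were 56.4 to 90.9 TPM in obesogenic libraries, against 121 to 171 TPM in control libraries. Among the other markers, Kcnj13 made up most of the control sums without Enpp2. It had 39.5, 32.6 and 22.2 TPM in obesogenic libraries 1, 2 and 3, against 123.7, 95.4 and 86.3 TPM in control libraries. Prlr went the other way, with 6.32, 4.35 and 6.13 TPM in obesogenic libraries 1, 2 and 3, against 1.48, 0.146 and 1.21 TPM in control libraries (limma adjusted p = 0.232). Kcne2 did not exceed 0.553 TPM. Of the 9 tested markers, 3 had a positive and 6 a negative difference. Their part in the Ttr values was not tested. Retinal pigment epithelium, which also makes transthyretin, had marker sums of 32.2 to 65.3 TPM in obesogenic libraries, against 41.2 to 54.3 TPM in control libraries, with 6 of 13 tested. Rpe65, which defines that epithelium, was listed at 0 in all 6 libraries, while Rdh5 had 15.4 to 26.9 TPM in obesogenic libraries, against 27.9 to 37.1 TPM in control libraries. Lrat had 14.7, 2.37 and 3.60 TPM in obesogenic libraries 1, 2 and 3, against 0.381, 0.164 and 0.192 TPM in control libraries, with a limma adjusted p of 0.267.

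Slco1c1 encodes OATP1C1, a thyroxine transporter of brain endothelium and astrocytes. It had 6.20, 3.41 and 10.2 TPM in obesogenic libraries 1, 2 and 3, against 6.36, 1.15 and 3.29 TPM in control libraries. The groups overlapped, with control library 1 at the level of obesogenic library 1. The log2 difference was 0.80 (SE 0.55, 95% interval -0.49 to 2.08), with a limma adjusted p of 0.653. Most of this signal was assigned to Slco1c1-202, annotated as a target of nonsense-mediated decay, which held 85.5% of the mean gene value in obesogenic and 60.1% in control libraries, although it was listed at 0 in control library 2. The coding transcript Slco1c1-201 was not analysed here, so the sum can miss the RNA that makes the transporter. The endothelial marker sum was lower in every obesogenic library, and the part of endothelial or astrocyte RNA in the Slco1c1 values was not tested.

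Crym was the gene of the 9 whose libraries did not overlap between diets. It encodes mu-crystallin, a cytosolic protein that binds T3 and also reduces ketimines. It had 3.74, 7.04 and 9.98 TPM in obesogenic libraries 1, 2 and 3, against 2.55, 1.49 and 0.870 TPM in control libraries. Every obesogenic library was above every control library, as was the case for 8.88% of all tested genes. Means were 6.92 ± 3.13 TPM in obesogenic and 1.64 ± 0.850 TPM in control libraries (SD, n = 3 each). The log2 difference of 1.55 (SE 0.43, 95% interval 0.54 to 2.56) had an unadjusted limma p of 0.00803 and an adjusted p of 0.302, so it did not pass the threshold. It was positive under all 16 alternative settings in which Crym was tested, between 1.00 and 2.03, with adjusted p-values between 0.0805 and 0.75. The neuronal marker sum was also higher in every obesogenic library, at 1039, 213 and 1920 TPM in obesogenic libraries 1, 2 and 3. The part of neuronal RNA in the Crym difference was not tested.

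**Figure D2:**
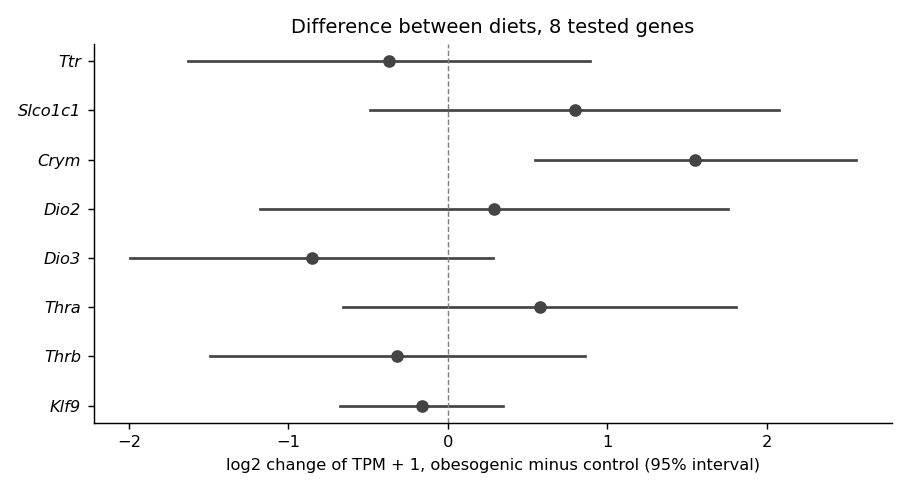
Log2 difference between diets in log2(TPM + 1) for the 8 tested genes, obesogenic minus control, with points for the limma estimate and bars for its 95% interval. The interval of Crym, 0.54 to 2.56, lies above 0 without adjustment for the number of genes, and the other 7 intervals include 0.

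The deiodinases set the local balance between active and inactive hormone. Dio2 had 11.0, 1.70 and 7.49 TPM in obesogenic libraries 1, 2 and 3, against 2.46, 7.93 and 3.88 TPM in control libraries. Obesogenic library 2, the lowest of the 6, also had the lowest sum of astrocyte markers, at 3281 TPM. Means were 6.73 ± 4.70 TPM in obesogenic and 4.76 ± 2.84 TPM in control libraries (SD, n = 3 each), with a log2 difference of 0.29 (95% interval -1.18 to 1.75) and a limma adjusted p of 0.907. The sign turned to -0.15 without obesogenic library 1 and to -0.02 without control library 1, and the difference was 0.92 without obesogenic library 2. Tanycytes and hypothalamic ependyma are a rich source of Dio2 in brain. Their marker sums were 270, 306 and 260 TPM in obesogenic libraries 1, 2 and 3, against 221, 186 and 157 TPM in control libraries. Obesogenic library 2 thus had the highest sum. Without Rarres2, the most abundant gene of that list, the sums were 202, 92.1 and 183 TPM in obesogenic libraries 1, 2 and 3. Control libraries then had 97.1, 97.0 and 96.1 TPM, so the place of obesogenic library 2 depended on that gene. All 11 tested markers of that list were higher on average in obesogenic libraries and 0 of 11 were called. Rax, a transcription factor of tanycytes, had 18.1, 3.41 and 19.8 TPM in obesogenic libraries 1, 2 and 3, against 3.19, 1.47 and 1.38 TPM in control libraries, with an adjusted p of 0.342. The part of these cell types and of immunoglobulin RNA in the Dio2 values was not tested.

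Dio3 had 0.528, 0.0766 and 1.31 TPM in obesogenic libraries 1, 2 and 3, against 3.71, 1.72 and 0.755 TPM in control libraries. The groups overlapped, and the spread over the 6 libraries was 48.4-fold, the widest of the 9 genes. The log2 difference was -0.85 (SE 0.49, 95% interval -1.99 to 0.29) with a limma adjusted p of 0.577. With a pseudocount of 0.1 TPM in place of 1 TPM it was -1.75, with an adjusted p of 0.588. At these levels, with sequencing depth unknown, a difference of this size could not be separated from the spread between libraries.

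The share of Dio2 in the sum of Dio2 and Dio3 puts both enzymes on a single scale within each library. It was 95.4%, 95.7% and 85.1% in obesogenic libraries 1, 2 and 3, against 39.9%, 82.2% and 83.7% in control libraries. All obesogenic libraries were above all control libraries, although obesogenic library 3 exceeded control library 3 by little. Means were 92.1 ± 6.04% in obesogenic and 68.6 ± 24.9% in control libraries (SD, n = 3 each), a difference of 23.5 percentage points with a two-sided exact permutation p of 0.1, the smallest that 20 arrangements allow. Control library 1 held much of the difference, which was 9.11 points without it. As a log2 ratio with 1 TPM added to each gene, the groups overlapped and the exact permutation p was 0.3.

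For both receptor genes, main coding transcripts were not analysed here, which limits what the sums hold. Thra had 27.3, 8.06 and 36.7 TPM in obesogenic libraries 1, 2 and 3, against 10.1, 15.1 and 15.3 TPM in control libraries. Obesogenic libraries 1 and 3 were above every control library and obesogenic library 2 was below every control library. Means were 24.0 ± 14.6 TPM in obesogenic and 13.5 ± 2.98 TPM in control libraries (SD, n = 3 each), with a log2 difference of 0.58 (95% interval -0.66 to 1.81) and a limma adjusted p of 0.744. Thra was called in 1 setting. With limma's array weights, which weight libraries down by their distance from the fit, the log2 difference was 0.97 with an adjusted p of 0.0442, a setting in which 2064 of 14364 genes were called. Without obesogenic library 2 it was 1.19 with an adjusted p of 0.0512, so no removal of a single library made the call. When obesogenic library 2 alone stood for its diet, the log2 difference was -0.66, a value whose spread comes from the control libraries only. Obesogenic libraries 1 and 3 were also those with the highest neuronal sums, 1039 and 1920 TPM, and the part of neuronal RNA in Thra was not tested.

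In the GENCODE M21 annotation, Thra-202 has 410 codons, the length of the T3-binding receptor TRα1, and Thra-201 has 492 codons, the length of TRα2, a splice form that does not bind T3. Neither was analysed here. The largest listed transcript was Thra-203, with 18.3, 5.58 and 28.9 TPM in obesogenic libraries 1, 2 and 3, against 6.06, 9.76 and 8.22 TPM in control libraries, and a limma adjusted p of 0.776. All of its 1240 exonic bases lie in exons of Thra-201. It ends at base 98768403, beyond the end of Thra-202 at base 98765111, so as annotated it follows Thra-201, the TRα2 form. Yet 1110 of its bases also lie in exons of Thra-202. With neither full transcript analysed, how far its value holds reads of TRα1 is unknown. Its share of listed Thra was 67.0%, 69.2% and 78.7% in obesogenic libraries 1, 2 and 3, against 60.1%, 64.4% and 53.6% in control libraries. The shares did not overlap, and their difference of 12.3 percentage points had an exact permutation p of 0.1, the smallest this design allows. Thra-203 also shares 130 bases with exons of Nr1d1, a clock repressor on the opposite strand, and whether counting used strand is not given in the sources used here. Nr1d1 had 175, 77.9 and 76.8 TPM in obesogenic libraries 1, 2 and 3, against 188, 178 and 71.3 TPM in control libraries. The part of Nr1d1 reads in the Thra-203 values was not tested.

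Thrb had 6.69, 2.24 and 10.8 TPM in obesogenic libraries 1, 2 and 3, against 5.94, 9.90 and 6.50 TPM in control libraries. The groups overlapped, and obesogenic library 2 was again the lowest. The log2 difference was -0.32 (SE 0.50, 95% interval -1.49 to 0.86) with a limma adjusted p of 0.869, and it was 0.20 without obesogenic library 2. Thrb-201 and Thrb-203, with the 461 codons of TRβ1, were not analysed here. The largest listed transcript was Thrb-202, whose 475 codons are those of TRβ2, the form known from hypothalamus, pituitary and retina. It had 5.81, 2.24 and 7.52 TPM in obesogenic libraries 1, 2 and 3, against 3.03, 4.64 and 3.93 TPM in control libraries, with a log2 difference of 0.25 and an adjusted p of 0.914. It starts at the downstream site whose upstream sequence is printed above. Because the TRβ1 transcripts were not analysed, how reads of exons common to both forms were divided is unknown. Thrb-204, a retained-intron transcript, was listed at 0.888, 0 and 1.19 TPM in obesogenic libraries 1, 2 and 3, against 2.91, 2.95 and 1.95 TPM in control libraries. Every obesogenic library was below every control library, as for 6.11% of the 35408 transcripts tested, and the log2 difference of -1.15 had a limma adjusted p of 0.538. Of the 29 transcripts of the 9 genes with values, 12 were tested and 0 were called, where 0.00565% of all tested transcripts were called. Unadjusted, 2 of the 12, Crym-201 and Thrb-204, had a p under 0.05, beside 8.46% of all tested transcripts. Crym-201, the coding transcript, was higher in every obesogenic library, as were 7.43% of all tested transcripts, and 13.5% did not overlap in either direction. For 6 of the 35 transcripts that GENCODE M21 annotates to the 9 genes there was no value here.

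**Figure D3:**
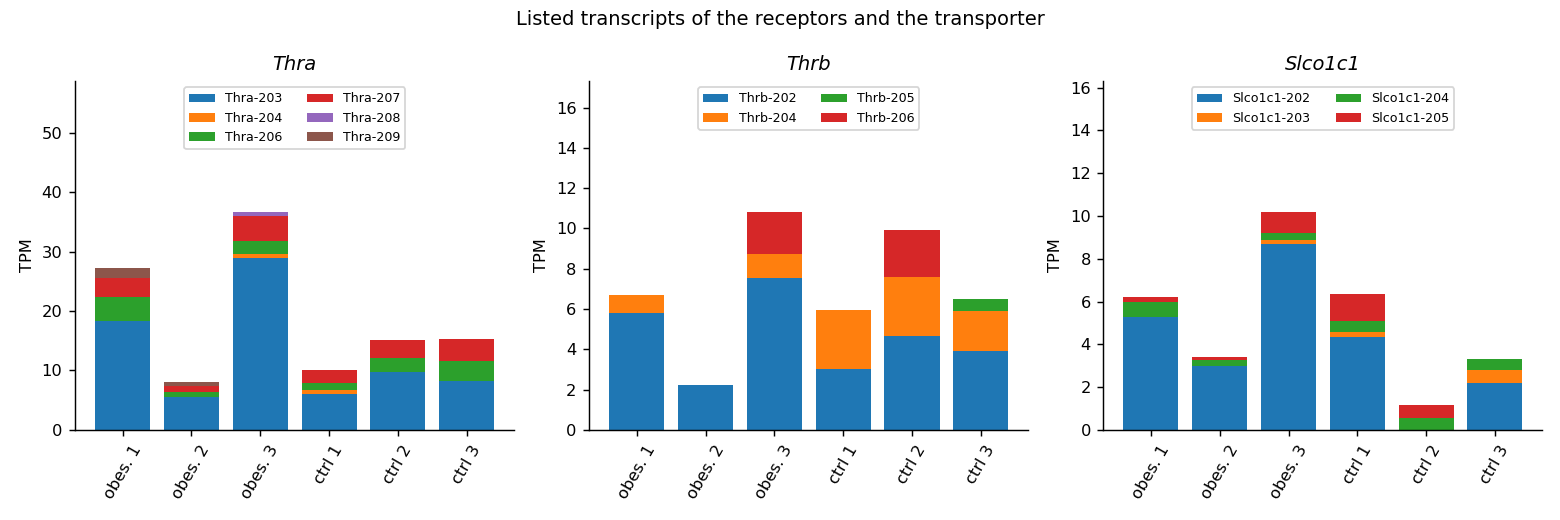
TPM of the listed transcripts of Thra, Thrb and Slco1c1, stacked by library, obesogenic libraries left of control libraries. Thra-203 makes up 67.0%, 69.2% and 78.7% of listed Thra in obesogenic libraries and 60.1%, 64.4% and 53.6% in control libraries.

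Klf9 and Hr are targets of the receptors, and their levels are often read as measures of hormone action. Klf9 encodes a zinc finger transcription factor that is raised by T3 and also by glucocorticoids. It had 120.1, 83.0 and 99.2 TPM in obesogenic libraries 1, 2 and 3, against 92.8, 134.6 and 111.8 TPM in control libraries. The groups overlapped, and the highest and lowest libraries differed 1.62-fold, the narrowest range of the 9 genes. Means were 100.8 ± 18.6 TPM in obesogenic and 113 ± 20.9 TPM in control libraries (SD, n = 3 each). The log2 difference of -0.16 (SE 0.22, limma adjusted p = 0.834) had a 95% interval of -0.68 to 0.35, the tightest among the 8 tested genes. Rescaled without immunoglobulin genes it was -0.06, and with array weights 0.051.

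Hr encodes hairless, a corepressor and histone demethylase whose gene is directly induced by T3 in brain. Its sum was 0.980, 0.109 and 0.795 TPM in obesogenic libraries 1, 2 and 3, against 0.120, 0.105 and 0.0757 TPM in control libraries, under the filter, and it was not tested. The levels of obesogenic libraries 1 and 3 came mainly from Hr-204, a noncoding transcript of 337 bases with 0.836 and 0.795 TPM there, and listed at 0 in the other 4 libraries. The listed coding transcripts were low, with Hr-203 at no more than 0.120 TPM in any library and Hr-205 at 0.144 TPM in obesogenic library 1 and 0 in the others, and the main coding transcript Hr-201 was not analysed here. With no filter the log2 difference of the gene was 0.52 with an adjusted p of 0.608.

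The wider pathway gave no called gene either with all libraries weighted equally. Over 5 lists with 74 genes of transport, metabolism, coregulation, response and the hypothalamus, pituitary and thyroid axis, 58 were tested, 0 were called and 11 had an unadjusted limma p under 0.05. Of the 58, 34 had a positive difference, or 58.6%, beside 57.7% of all tested genes. Diets did not overlap for 11 of the 58, or 19.0%, beside 16.3% of all tested genes. With array weights 12 of the 58 were called, beside 2064 of 14364 over all tested genes. Without obesogenic library 2 there were 7, beside 860 of 14007 over all genes tested in that setting. The number of pathway genes that passed the filter there can differ from 58. Hdac3, Nkx2-1, Rasd2 and Trh were called as higher in both settings, and Slco1a4, Sult1a1 and Slc5a5 as lower.

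Of 10 other transporters, 8 were tested with a median log2 difference of -0.30, and for 4 of them every obesogenic library was below every control library, as for 7.45% of all tested genes. Slco1a4 encodes OATP1A4, an organic anion transporter of brain endothelium that accepts thyroxine. It had 45.5, 34.4 and 48.9 TPM in obesogenic libraries 1, 2 and 3, against 80.8, 78.0 and 75.4 TPM in control libraries (log2 difference -0.86, limma adjusted p = 0.236). Slco4a1 and Slco1a5 had log2 differences of -0.96 and -0.65, with adjusted p-values of 0.414 and 0.487. The endothelial marker sum, which includes Slco1a4 itself, was lower in every obesogenic library, and its part in the transporter values was not tested.

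Of 6 other carriers and enzymes only Sult1a1 and Secisbp2 were tested, both with a negative difference. Sult1a1, a sulfotransferase whose substrates include thyroid hormones, had 59.3, 48.3 and 45.8 TPM in obesogenic libraries 1, 2 and 3, against 102, 114 and 113 TPM in control libraries. The groups were well apart, yet the log2 difference of -1.09 had a limma adjusted p of 0.146. The meningeal marker sum was also lower in every obesogenic library, and its part in this was not tested.

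Among receptor partners and coregulators, 17 of 17 were tested, with a median log2 difference of 0.09 and no gene with an unadjusted p under 0.05. Rxrg, a retinoid X receptor that pairs with thyroid hormone receptors, had 11.3, 2.94 and 33.4 TPM in obesogenic libraries 1, 2 and 3, against 5.47, 4.96 and 3.02 TPM in control libraries (adjusted p = 0.622 by limma). Like Thra, it was high in obesogenic libraries 1 and 3 and low in obesogenic library 2. Ncoa1, a coactivator, had a log2 difference of 0.40.

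Of 28 other genes known to respond to thyroid hormone, 24 were tested with a median log2 difference of 0.15. Differences were positive for 13 and negative for 11. Cbr2, a carbonyl reductase, had 22.9, 5.05 and 15.7 TPM in obesogenic libraries 1, 2 and 3, against 51.2, 29.2 and 48.2 TPM in control libraries (log2 difference -1.67, limma adjusted p = 0.341). Camk4, a calcium-dependent kinase of neurons, and Tubb2b, a neuronal tubulin, had log2 differences of 1.02 and 0.67. Camk4 was higher in every obesogenic library, while the groups overlapped for Tubb2b.

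Of the 13 genes of the endocrine axis 7 were tested, with a median log2 difference of 1.05. Trh encodes thyrotropin-releasing hormone, made by hypothalamic neurons. It had 44.4, 14.1 and 54.5 TPM in obesogenic libraries 1, 2 and 3, against 12.1, 3.94 and 9.26 TPM in control libraries, with a log2 difference of 1.95 and a limma adjusted p of 0.329. Nkx2-1, a transcription factor of thyroid and ventral forebrain, had 10.5, 3.54 and 35.0 TPM in obesogenic libraries 1, 2 and 3, against 2.67, 3.999 and 1.35 TPM in control libraries. Both were highest in obesogenic libraries 1 and 3, the libraries with the highest neuronal marker sums. The part of neuronal RNA in the Trh and Nkx2-1 values was not tested. Slc5a5, the iodide transporter, had a difference of opposite sign, with 19.8, 13.6 and 23.4 TPM in obesogenic libraries 1, 2 and 3, against 53.3, 52.7 and 37.1 TPM in control libraries (log2 difference -1.30, limma adjusted p = 0.219).

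**Figure D4:**
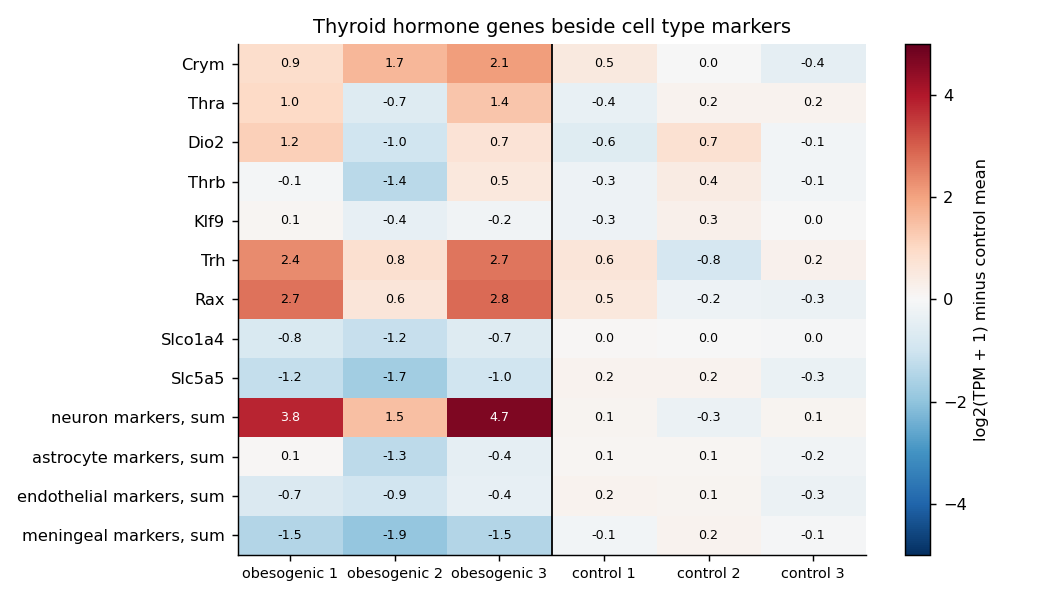
Log2(TPM + 1) of 5 of the thyroid hormone genes, 4 other genes and 4 marker sums in each library, minus the mean of the control libraries, with red above and blue below it and obesogenic libraries left of control libraries. Obesogenic library 2 is the lowest of the 6 for Thra, Dio2, Thrb and Klf9, and is above the control mean for Crym. The endothelial sum includes Slco1a4.

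In TPM as listed, not rescaled for immunoglobulin genes, obesogenic library 2 was the lowest of the 6 libraries for Dio2, Dio3, Thra, Thrb and Klf9. It was also the library with the immunoglobulin share, which lowers the TPM of its other genes, so these places can differ after rescaling. It was not the lowest for Crym, Ttr, Slco1c1 or Hr. The genes whose profiles over the 6 libraries lay closest were sought among all 14364 tested genes, by the root mean square difference of log2 values centred on each gene's mean. Dtx1, Lnx1 and Pdzrn4 lay closest to Thra, at 0.083, 0.088 and 0.0996. Haus1, Fut8 and Pllp lay closest to Klf9, at 0.066, 0.077 and 0.077, where Klf9 itself varied by only 0.23. Panx1 was closest to Crym, at 0.18, with 21.2, 35.4 and 44.9 TPM in obesogenic libraries 1, 2 and 3, against 14.2, 6.95 and 7.10 TPM in control libraries. For Dio2 the closest was Gpr176 at 0.17, for Dio3 Rasl12 at 0.16, for Thrb Grtp1 at 0.15, for Ttr Zfyve19 at 0.11 and for Slco1c1 Arl2bp at 0.21. These are descriptions over 6 libraries, and all genes of a library share its depth and composition.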

How the data were processed

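Poly(A) RNA of mouse optic nerve was measured in 6 libraries, 3 per diet, prepared with low-input kits (NucleoSpin RNA Plus XS and SMART-Seq mRNA), per the labels' protocols. The authors deposited transcript abundances in TPM. Software named in the submitters' processing notes, with no role stated, was featureCounts 2.0.3, Subread, STAR 2.7.9a and DRAGEN. Which program produced TPM, on which build and annotation, is not given in the sources used here. TPM keeps no depth, so depth per library is unknown and counting intervals were not possible. Listed TPM totalled 788456 to 832193 per library, and 14514, 14337 and 14449 genes reached 1 TPM in obesogenic libraries 1, 2 and 3, against 14081, 13824 and 14051 in control libraries.

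Repeated lines were dropped (645 of 110028), leaving 109383 transcripts, which were summed to 35850 genes. For genes that reached 1 TPM in 3 or more libraries, log2(TPM + 1) was compared with limma 3.58.1 (R 4.3.3, lmFit and eBayes with trend), all 6 libraries in the model and no covariate, with Benjamini-Hochberg adjustment over all of them and a threshold of 0.05. Transcripts were tested alike. Fold changes on this scale understate those of low genes. Shares were compared by two-sided exact permutation tests. The script was tested on simulated data. Transcript structures came from GENCODE M21 (GRCm38), matched by transcript identifier for 98.9% of transcripts, and promoters from RefSeq, where 5 of the 9 genes had an entry.

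The genes and lists were chosen with earlier results of these data known. Beyond the 9 genes, up to 3 genes of smallest unadjusted p per list are named, and the 3 closest profiles per gene were computed. Nf1, Nr1d1, Kcne2, Tmem72, Rpe65, Hdac3, Rasd2, Cga and Tshb were named after their values were seen. Alternatives covered the pseudocount, filter, scaling, array weights, robust eBayes, the sample number as a block and the removal of each library. Leaving out obesogenic libraries 1 and 3 together, and list sums without a list's most abundant gene, were added after seeing the data. Figures were drawn with matplotlib 3.10.9.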

Additional observations from a re-analysis of the deposited data

How the results depend on the processing

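Only 1 gene of 14364 was called, none of the 9, and the count depended on the weight of single libraries. It was 0 with no filter, 2064 with array weights, 350 without obesogenic libraries 1 and 3, and between 0 and 860 when each library was left out in turn, the highest being without obesogenic library 2. Among the 9 genes the count was 1 with array weights (Thra, log2 difference 0.97, adjusted p = 0.0442 by limma) and 0 in every removal of 1 library. Among the other pathway genes it was 12 with array weights, 5 without obesogenic libraries 1 and 3, and between 0 and 7 with 1 library left out. The 7 were Hdac3, Nkx2-1, Rasd2 and Trh, higher, and Slc5a5, Slco1a4 and Sult1a1, lower. Signs turned for Klf9 with array weights (0.051), and for Dio2 (-0.98) and Thra (-0.66) without obesogenic libraries 1 and 3. Leaving out 1 library gave ranges of -0.76 to 0.20 for Ttr, -0.15 to 0.92 for Dio2, -0.73 to 0.20 for Thrb, 0.16 to 1.19 for Thra, 1.28 to 1.88 for Crym, 0.33 to 1.22 for Slco1c1, -1.20 to -0.59 for Dio3 where it was tested and -0.30 to -0.03 for Klf9. The difference of the Dio2 share ranged from 9.11 to 31.0 percentage points and that of the Thra-203 share from 8.72 to 14.8. The cause of these shifts was not tested. Without obesogenic libraries 1 and 3 1 obesogenic library is left, assumed to vary like the controls, so those counts and signs describe that library. With the sample number as a block, 1 gene was called, in the other direction, and 0 of the 9 (Crym adjusted p = 0.336, Thra 0.723). Same-numbered libraries deviated with correlations of 0.00787, 0.177 and 0.132. Since not every one was over 0.1, the numbers were not taken as pairs, although 5 of 6 libraries correlated best with their own number. These numbers are those of the sample titles, and the submitters' column names number some samples otherwise. By the column names, control library 2 and obesogenic library 3 share a number, with a correlation of -0.133. Dio3 fell under the filter without obesogenic library 3, control library 1 or control library 2, and Crym, Dio3 and Ttr did so at 5 TPM. The unknown depth limits all values near 1 TPM.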

Other observations

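Transcripts of the pituitary hormone subunits were listed above 0 in all 6 libraries for Tshb and in 5 of 6 for Cga. Cga, the subunit that thyrotropin shares with the gonadotropins, had 378, 18.7 and 76.3 TPM in obesogenic libraries 1, 2 and 3, against 258, 0 and 2.90 TPM in control libraries. Tshb, the thyrotropin subunit, had 13.7, 3.59 and 7.77 TPM in obesogenic libraries 1, 2 and 3, against 14.5, 1.80 and 1.49 TPM in control libraries. Both were highest in 1 library of each diet, and limma gave adjusted p-values of 0.638 for Cga and 0.752 for Tshb.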
